A study of Mus musculus with 12 samples.

Results

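The sarcomeric myosin heavy chain genes Myh1, Myh2, Myh3, Myh4, Myh7 and Myh8 were read in mouse quadriceps, the large muscle at the front of the thigh, through every probe set whose single gene symbol in the array annotation was 1 of the 6. That is 6 genes of the 12394 with a symbol, read by 8 probe sets of 22690: 3 for Myh1 and 1 for each other gene. C57Bl/6J mice were kept sedentary or trained on a treadmill and given vehicle or GW1516 for 4 weeks. GW1516 activates PPARδ, a nuclear receptor, and the daily dose was 5 mg/kg. The 4 groups are called vehicle (sedentary, vehicle), exercise (trained, vehicle), GW (sedentary, GW1516) and combination (trained, GW1516). Each group had 3 arrays, and the RNA of an array came from a pool of 3 mice, so that the spread between arrays is a spread between pools. No genetic change is named for any group, and no source used here gives the age of the mice.

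Myosin heavy chain is the motor protein of the thick filament, and the isoform a fibre makes sets how fast it contracts and how much energy that costs. In adult mouse limb muscle Myh4 encodes the fastest isoform (type IIb), Myh1 the IIx isoform, Myh2 the IIa isoform of fast oxidative fibres, and Myh7 the slow type I isoform, which is also a myosin of the heart. Myh3 (embryonic) and Myh8 (perinatal) are made in development and come back in regenerating fibres. Endurance training is known to move limb muscle from IIb toward IIx and IIa, and expression of an active PPARδ in muscle is known for a shift toward oxidative fibres.

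In RefSeq (GRCm38.p6) 5 of the 6 genes lie in 1 cluster on chromosome 11 in the order Myh3, Myh2, Myh1, Myh4, Myh8, all on the plus strand, and Myh7 lies apart on chromosome 14. The array files name no genome build, so the map serves only for names and order. All 6 genes matched a promoter window. The 250 bases before the start of Myh2, Myh1, Myh4 and Myh8 are shown because these neighbours share letters there that Myh3 and Myh7 lack in their own windows. Capitals mark the longest stretch common to the 4 windows, TTCTAATTATATCC, and another stretch that they share apart from 2 open positions, TCAAATTATNNATAG.
Myh2, chr11:67170777-67171026, plus strand: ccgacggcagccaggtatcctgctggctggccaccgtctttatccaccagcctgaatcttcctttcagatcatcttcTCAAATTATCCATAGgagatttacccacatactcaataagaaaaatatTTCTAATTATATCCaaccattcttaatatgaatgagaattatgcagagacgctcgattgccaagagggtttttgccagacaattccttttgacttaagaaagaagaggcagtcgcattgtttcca
Myh1, chr11:67199852-67200101, plus strand: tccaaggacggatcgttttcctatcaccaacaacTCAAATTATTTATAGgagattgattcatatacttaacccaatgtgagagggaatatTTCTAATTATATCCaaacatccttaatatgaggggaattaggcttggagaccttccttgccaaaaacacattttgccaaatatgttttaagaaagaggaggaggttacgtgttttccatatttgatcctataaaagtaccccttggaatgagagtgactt
Myh4, chr11:67237562-67237811, plus strand: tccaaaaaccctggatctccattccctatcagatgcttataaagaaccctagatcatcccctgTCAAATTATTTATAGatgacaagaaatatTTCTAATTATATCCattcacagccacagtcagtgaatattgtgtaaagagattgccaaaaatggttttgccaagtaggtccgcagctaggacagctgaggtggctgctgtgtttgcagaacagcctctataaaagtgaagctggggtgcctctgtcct
Myh8, chr11:67276874-67277123, plus strand: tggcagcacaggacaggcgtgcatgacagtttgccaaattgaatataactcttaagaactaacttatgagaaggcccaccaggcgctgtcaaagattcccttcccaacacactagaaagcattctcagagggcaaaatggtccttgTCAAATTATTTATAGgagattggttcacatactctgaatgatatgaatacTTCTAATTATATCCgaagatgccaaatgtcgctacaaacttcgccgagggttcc
Both stretches were searched on both strands of all 32851 RefSeq promoter windows of this length, and each was in 4 of them (0.0122%), those of these 4 genes. They were found from these windows, so this is a description of their letters and no test. The stretch TTCTAATTATATCC ends 147 bases before the start in Myh1 and 145 bases before it in Myh4, 112 bases before it in Myh2 and 41 bases before it in Myh8. The TATA letters TATAAA, which 12.4% of all windows hold on one strand or the other, end 27 bases before the start in Myh1 and 26 bases before it in Myh4, and are not in these letters of Myh2. The E-box letters CANNTG, the kind of site that myogenic factors bind, are in 66.2% of all windows, and were in those of Myh4 (2 matches) and Myh8 (1) and not in those of Myh1 and Myh2. The CArG box, a motif bound by serum response factor, was in the Myh4 window and in 1.47% of all windows. The form of the MEF2 motif that was searched for was in 0.508% of all windows and in none of the 6 genes' windows. Looser forms of this motif were not searched for, and the capitals may hold one, so its absence is not shown.

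The signals are linear intensities, and their medians per array lay between 48.4 and 57.2. The 8 skeletal muscle markers looked at (such as Acta1, Ckm and Ttn) were above background, and the 5 heart markers, Myh6 among them, were at background. The summed signal of the skeletal muscle markers was 114000 to 118000 on the vehicle arrays, 131000 to 136000 on the exercise arrays, 113000 to 140000 in GW and 121000 to 133000 in the combination. Fat cell markers (4 of 5 with a probe set above background) summed to 1740 to 2550 on 10 arrays and to 4640 and 7070 on combination arrays 2 and 3. As a measure of RNA quality, the signal of the Actb control probe set at the 3′ end over that at the 5′ end was 0.778, 0.816 and 0.763 on the exercise arrays, below 1.1, 0.918 and 0.838 on the vehicle arrays, and 0.801 to 0.916 on the others. For Gapdh this ratio was 0.821 to 0.94 on all 12, with exercise and vehicle overlapping. The part of these differences in the results below was not tested. In whole muscle, fewer fibres of a type and less RNA per fibre cannot be told apart.

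Background was set at a signal of 23.5, the 95th percentile of 27 bacterial control probe sets that match no mouse gene (per array 12.2 to 35.5). By this rule Myh4, Myh2 and 2 of the Myh1 probe sets were far above background on all 12 arrays. The third Myh1 probe set, 1452465_at (mean signal 39.5, above its own array's background on 10 of 12 arrays), Myh3 (42.1, 9 of 12) and Myh8 (31.2, 10 of 12) lay just above it, and Myh7 (14.1, 4 of 12) lay at background. Tests were run on the 13575 probe sets in the upper 60% by mean log2 signal, which hold 6 of the 8. Myh7 and Myh8 fell below that line and were tested only without the filter. Myh3 passed it narrowly, with a geometric mean signal of 30.2 where the lowest tested was 28.4. Its mean log2 signal was 6.45 in exercise against 3.95 in vehicle, 5.23 in GW and 4.05 in the combination. Without exercise array 2 or 3 it fell below the line, so its place among those tested rests on the exercise arrays.

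**Figure D1:**
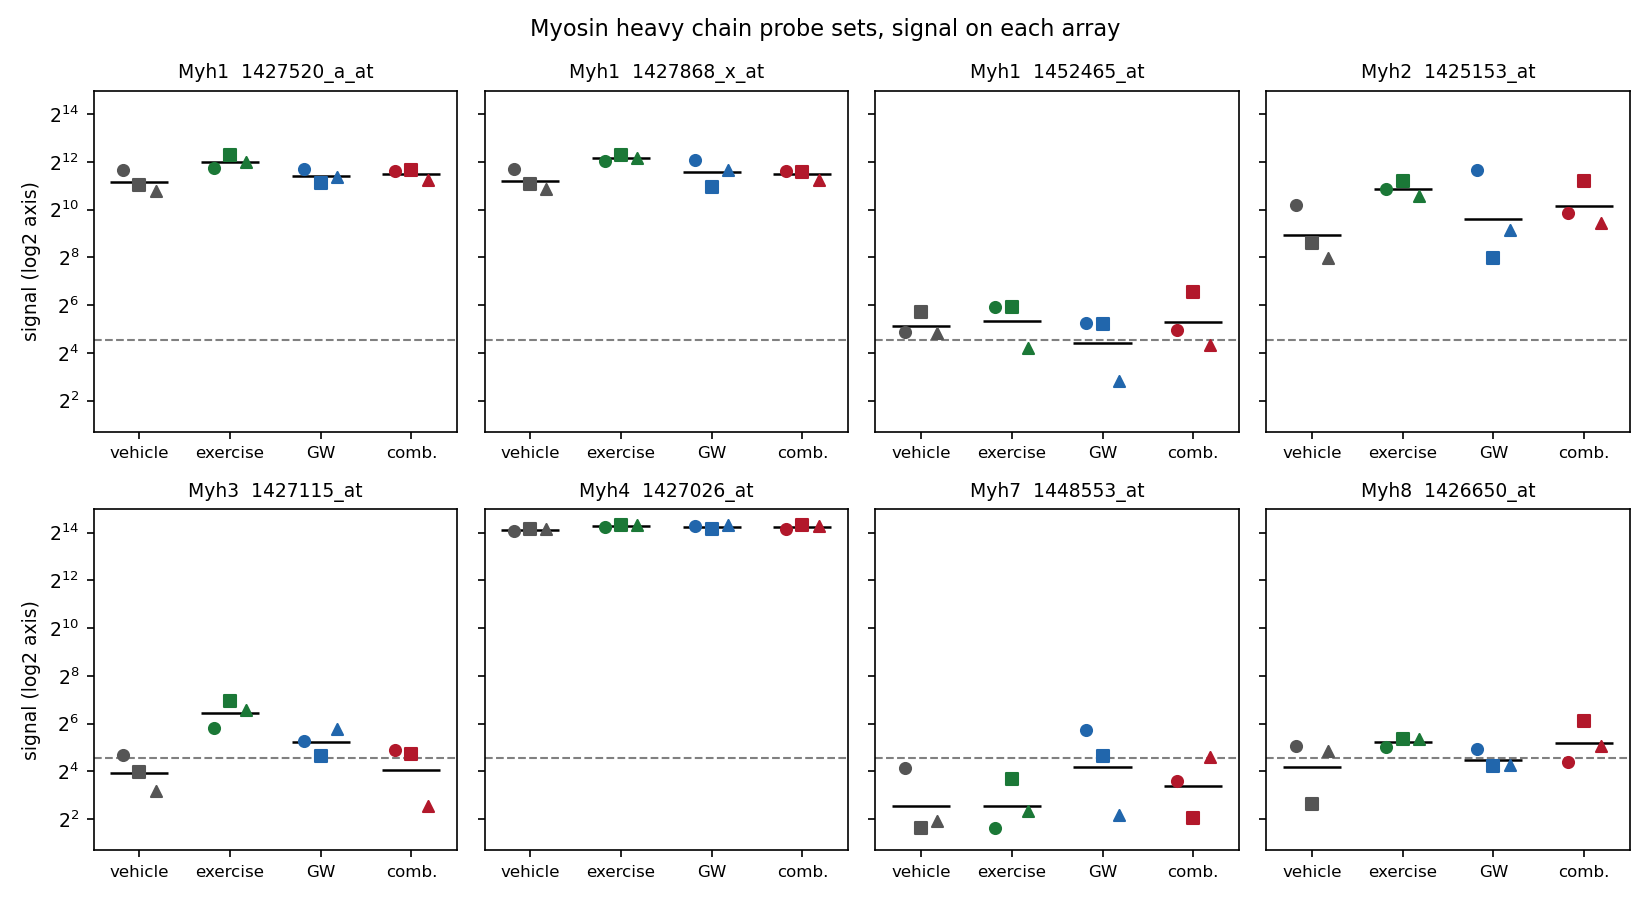
Signal of the 8 myosin heavy chain probe sets on each of the 12 arrays (log2 axis), by group. Circles, squares and triangles are arrays 1, 2 and 3, black bars the mean of the log2 signals, and the dashed line the background of 23.5; Myh4 is nearly level, Myh2 spreads widely within vehicle, GW and combination, and Myh7 lies at background.

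Myh4 (Entrez gene 17884), the IIb isoform, was the 8th brightest of the 22626 probe sets for mouse genes. Its signal was 17100, 18000 and 18400 in vehicle, 19500, 20700 and 20400 in exercise, 19800, 18000 and 20800 in GW and 18300, 20800 and 19700 in the combination. The exercise arrays all lay above the vehicle arrays, while GW and combination overlapped with both. Exercise stood at a log2 fold change of 0.18 ± 0.07 (SE) against vehicle (adjusted p = 0.372 by limma), and quantile normalization turned it to -0.05. Training averaged over both drug states gave 0.10 ± 0.05 (-0.05 with quantile normalization) and the drug averaged over both training states 0.04 ± 0.05, with a 95% confidence interval of -0.06 to 0.14. Of 13 fast sarcomere genes described below, 11 were also above 0 in exercise against vehicle, with a median of 0.17. Whether Myh4 moved apart from such genes was not tested. Myh4 was also among the steadiest genes on the arrays: its SD within groups was 0.08 on the log2 scale, and 2.78% of the probe sets tested had an SD as low. The brightest probe set of any array read 20746 to 27940, close to Myh4, and whether signals this high still followed the amount of RNA was not tested.

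Myh1 (Entrez gene 17879), the IIx isoform, was read by 2 bright probe sets that gave much the same picture. In 1427868_x_at, whose suffix marks probes that can also match other transcripts, the signal was 3320, 2150 and 1860 in vehicle, 4160, 5030 and 4660 in exercise, 4330, 1960 and 3230 in GW and 3140, 3020 and 2460 in the combination. All exercise arrays lay above all vehicle and all combination arrays, and GW array 1 lay among them. The exercise mean was 4620 ± 436 (SD, n = 3) against 2444 ± 771 in vehicle, 1.94-fold higher (log2 0.96 ± 0.24, adjusted p = 0.225 by limma), which did not pass the threshold of 0.05. In 1427520_a_at the means were 4194 ± 810 and 2375 ± 794, 1.81-fold apart (log2 0.85 ± 0.20, adjusted p = 0.219), and the 3 exercise arrays were the highest of all 12. With array weights, which give less to arrays that stand apart, both passed (log2 1.04 and 0.95, adjusted p = 0.0459 for each), and over 22 alternatives the adjusted p lay between 0.0459 and 0.463 in the first probe set and between 0.0459 and 0.442 in the second. The dim probe set 1452465_at had a log2 fold change of 0.20 with an interval of -1.32 to 1.72, too wide to set beside the others.

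GW alone left Myh1 nearer to vehicle. The log2 fold change was 0.35 ± 0.24 and 0.24 ± 0.20 in the bright probe sets (adjusted p = 0.844 and 0.871), and the combination stood at 0.27 ± 0.24 and 0.33 ± 0.20 (0.746 and 0.618). Against exercise, the combination was lower in every array, by log2 fold changes of -0.69 ± 0.24 and -0.52 ± 0.20 (adjusted p = 0.388 and 0.472). With only the exercise and combination arrays in the fit the first of these passed (-0.69, adjusted p = 0.0238), and its adjusted p lay between that and 0.649 over the alternatives. The interaction, the drug effect in trained minus that in sedentary mice, was -1.04 (interval -1.75 to -0.33) and -0.76 (-1.38 to -0.14), with adjusted p = 0.703 and 0.718. In the order of groups, exercise was the highest in both probe sets, by more than the SD within groups, and vehicle, GW and combination did not differ from their neighbours beyond it.

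Myh2 (Entrez gene 17882), the IIa isoform, varied more between pools of 1 group than nearly any other gene: 99.5% of the probe sets tested had a smaller or equal SD within groups (1.21 on the log2 scale). The signal was 1190, 384 and 248 in vehicle and 1860, 2340 and 1510 in exercise. It was 3210, 253 and 569 in GW and 922, 2380 and 703 in the combination. The exercise arrays were high together and all above vehicle, whereas GW array 1 was the highest of all and GW array 2 next to the lowest. The exercise mean was 1902 ± 417 against 608 ± 510 in vehicle (log2 fold change 1.95 ± 0.73, 3.86-fold, interval 0.40 to 3.50, adjusted p = 0.375), with a log2 fold change of 2.60 without vehicle array 1. GW against vehicle was 0.67 ± 0.73 (adjusted p = 0.904) and turned to -0.35 without GW array 1. The combination against vehicle was 1.25 ± 0.73 (adjusted p = 0.599), and 1.90 without vehicle array 1. The drug averaged over training gave -0.01 with an interval of -1.11 to 1.09, so a change of up to about that size either way was within the error. Neighbouring groups in the order vehicle, GW, combination, exercise differed by 0.58 to 0.70, less than the SD within groups.

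The developmental isoforms were dim. Myh3 (Entrez gene 17883), the embryonic myosin, had signals of 25.9, 15.6 and 9.11 in vehicle and 56.4, 122 and 96.4 in exercise. In GW it had 38.2, 24.9 and 55.2, and in the combination 29.7, 26.3 and 5.77. The 3 exercise arrays were thus the 3 highest of all 12, although GW array 3 lay just under exercise array 1. Exercise stood 5.66-fold above vehicle (log2 2.50 ± 0.62, interval 1.17 to 3.83, adjusted p = 0.229) and the combination below exercise (log2 -2.40 ± 0.62, adjusted p = 0.191), neither past the threshold. With a pseudocount of 10.5, which damps dim signals, these were 1.89 and -1.77, and without combination array 3 the second was -1.64. All 3 exercise arrays lay above the vehicle mean, while all 3 combination arrays lay below the GW mean. The latter is no separation: GW array 2 (24.9) lay below combination arrays 1 and 2, and the combination against GW was -1.18 ± 0.62 (adjusted p = 0.856 by limma), and -0.42 without combination array 3. The interaction was -3.68 ± 0.88 (interval -5.56 to -1.80, unadjusted p = 0.000835, adjusted p = 0.451 by limma), and -2.64 with the pseudocount and -2.92 without combination array 3. In vehicle and combination Myh3 was at or near background, so the size of these fold changes is uncertain.

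Myh8 (Entrez gene 17885), the perinatal myosin, gave 33.2, 6.18 and 29.3 in vehicle, 32.6, 40.5 and 41.0 in exercise, 31.0, 18.7 and 19.2 in GW and 20.7, 69.3 and 33.2 in the combination. Every group overlapped with every other except exercise and GW, whose arrays lay apart. Without the filter exercise against vehicle was 1.06 ± 0.64 (adjusted p = 0.650), and leaving out the single low vehicle array 2 brought it to 0.28. Myh7 (Entrez gene 140781), the slow isoform, read 3.05 to 17.7 in vehicle and exercise, 53.9, 24.7 and 4.50 in GW and 12, 4.07 and 24.4 in the combination. Its log2 fold changes against vehicle had intervals from -2.23 to 2.19 for exercise and -0.59 to 3.82 for GW (adjusted p = 0.996 and 0.873 without the filter). The 2 probe sets that the annotation gives to both Myh7 and Myh6 were at background too (means 9.22 and 5.11). The slow isoform could therefore not be followed in these arrays, and no difference in it was detectable.

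**Figure D2:**
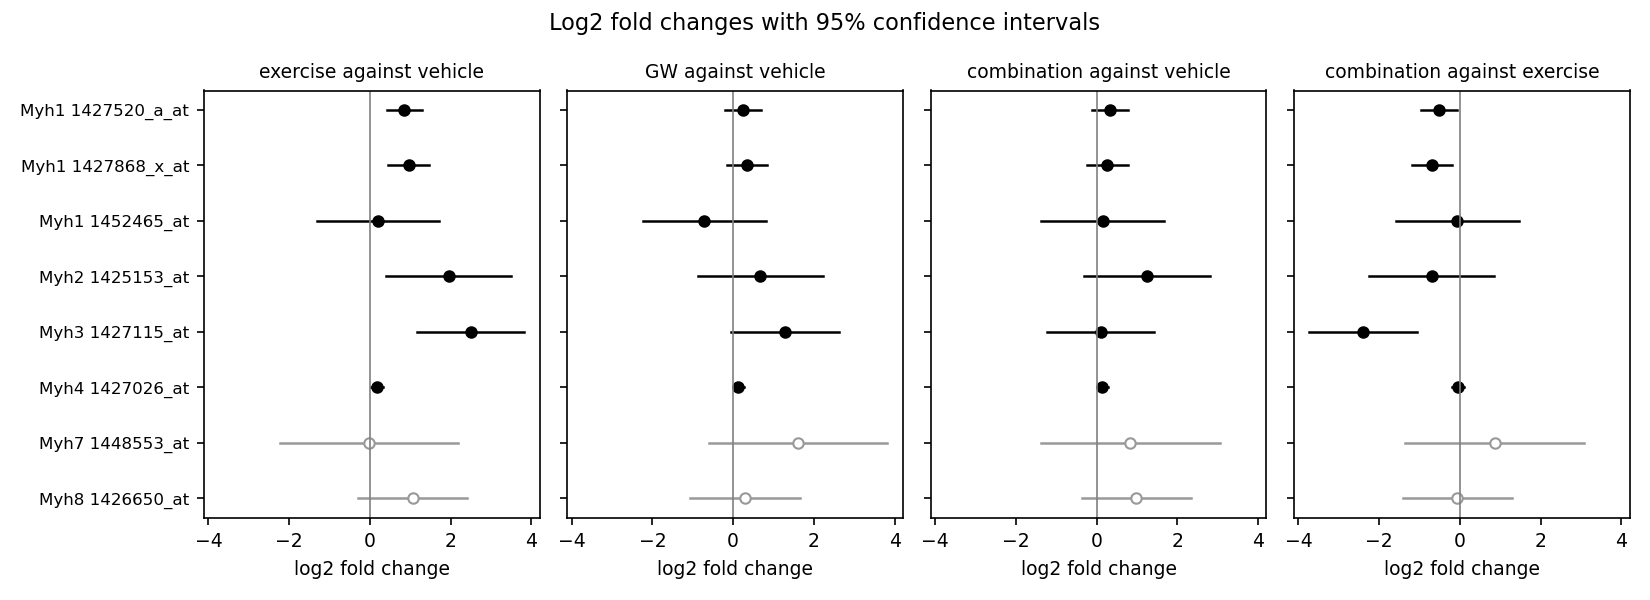
Log2 fold changes (points) with 95% confidence intervals (lines) of the 8 probe sets in 4 comparisons. Filled points are probe sets that were tested; open grey points, Myh7 and Myh8, come from the fit without the filter. The whole interval of exercise against vehicle is above 0 for both bright Myh1 probe sets, Myh2, Myh3 and Myh4. That of combination against exercise is below 0 for both bright Myh1 probe sets and Myh3.

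Over all members, none of the 6 probe sets tested passed an adjusted p of 0.05 in any of the 8 comparisons by limma. In exercise against vehicle 0.0147% of all probe sets tested passed, in GW against vehicle 0.0958%, in the combination against vehicle 0.155% and against exercise 0.162%. The shares were 0% in the combination against GW and the interaction, 0.0147% for training and 0.317% for the drug averaged. At an unadjusted p under 0.05 the count was 5 of 6 in exercise against vehicle, where 10.4% of all probe sets tested reached it, and 3 of 6 in the combination against exercise (9.18% of all), the interaction (6.79%) and training averaged over drug (9.09%). It was 0 of 6 in GW against vehicle (6.42% of all), the combination against vehicle (9.98%) and against GW (5.75%), and the drug averaged over training (8.37%). Of all 8 probe sets, 5 had every exercise array above every vehicle array, as 8.83% of all probe sets tested had, and 3 had every combination array below every exercise array, as 8.21% of all had. None of the 8 was separated in GW against vehicle (11% of all), the combination against vehicle (16.8%) or the combination against GW (10.5%). The 2 bright Myh1 probe sets are among both counts and are annotated to the same gene, so they are not independent. Myh3 is in both counts too, and it was among the 6 tested only because of its high exercise arrays. The median log2 fold change of the 6 was 0.91 in exercise, 0.30 in GW and 0.21 in the combination against vehicle, where all probe sets tested had medians of 0.01, 0.00 and 0.00. These comparisons share the vehicle arrays.

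The balance between isoforms was followed within each array as the difference of log2 signals. A factor common to all signals of an array drops out of it, but scaling that depends on signal does not. Quantile normalization turned Myh4 in exercise against vehicle from 0.18 to -0.05. Myh4 spread only 1.22-fold over the 12 arrays, so the differences from it mostly follow Myh1 or Myh2. The level of a balance depends on how brightly each probe set reads its gene, and only its change between groups can be read. Myh1 minus Myh4 was -2.37, -3.06 and -3.30 on the vehicle arrays and -2.23, -2.04 and -2.13 on the exercise arrays. It was -2.19, -3.20 and -2.69 in GW and -2.55, -2.78 and -3.01 in the combination. Exercise lay above every vehicle and combination array, 0.78 ± 0.30 (SE) above the vehicle mean; GW was 0.22 ± 0.30 and the combination 0.13 ± 0.30 above it, both overlapping with vehicle. With the mean of all 3 Myh1 probe sets in place of the brightest, GW was -0.17.

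Myh2 minus Myh4 was -3.85, -5.55 and -6.21 in vehicle, -3.39, -3.15 and -3.76 in exercise, -2.62, -6.16 and -5.19 in GW and -4.31, -3.13 and -4.81 in the combination. The exercise arrays again lay above all vehicle arrays, narrowly above vehicle array 1, with a difference of means of 1.77 ± 0.97, and of 1.26 to 2.45 with any 1 array left out (2.45 without vehicle array 1). GW was 0.54 ± 0.97 above the vehicle mean, and from -0.47 without GW array 1 to 1.29 without GW array 2. The combination was 1.11 ± 0.97 above it, and from 0.61 without vehicle array 3 to 1.79 without vehicle array 1. Within the faster isoforms, Myh2 minus Myh1 was -2.29 ± 0.73 (SD) in vehicle and -1.30 ± 0.29 in exercise, with overlapping arrays. No test was made of the balances, which combine members, and their errors are the SE from the SD within all 4 groups. Myh7 minus Myh4 holds no information on balance, because Myh7 was at background.

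**Figure D3:**
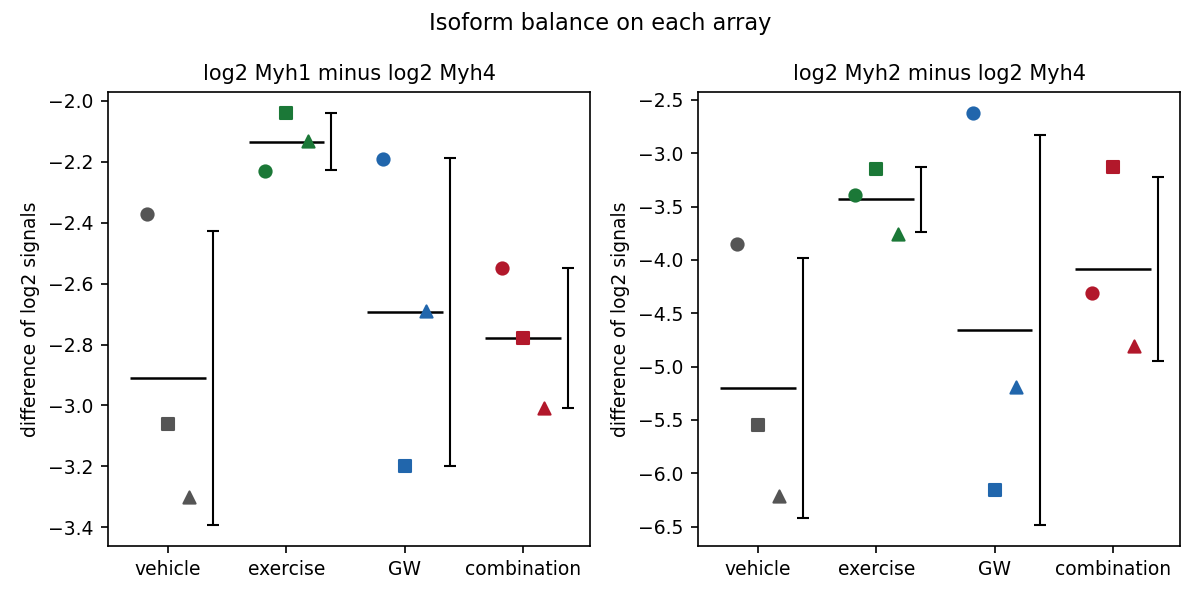
Difference of log2 signals within each array, Myh1 minus Myh4 (left) and Myh2 minus Myh4 (right), by group. Symbols are arrays 1, 2 and 3 (circle, square, triangle), black bars the mean and the capped lines 1 SD to either side; the exercise arrays lie close together, between -2.23 and -2.04 and between -3.76 and -3.15, above every vehicle array, while GW array 1 (-2.19 and -2.62) reaches or passes them in both and combination array 2 (-3.13) passes them in the second.

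Across the 12 arrays Myh1 and Myh2 went up and down together, between the pools of 1 group as well as between groups. Of 10 pairs among Myh1, Myh2, Myh3, Myh4 and Myh8 (the brightest probe set of each gene), Myh1 with Myh2 had Pearson's r of 0.879 (permutation p = 0.00035, adjusted p = 0.0035) and Spearman's rho of 0.776 (p = 0.00425, adjusted p = 0.0213). Pearson's r was 0.772 without vehicle array 3 and GW array 2, the 2 farthest from the median, and 0.895 after the group means were taken out. Myh1 with Myh3 had r of 0.826 (permutation p = 0.00107, adjusted p = 0.00535) and rho of 0.881 (adjusted p = 0.0033). For this pair r was 0.862 without the same 2 arrays and 0.656 within groups. The 8 other pairs did not pass by r (adjusted p = 0.071 to 0.442), and Myh4 had r of 0.548 with Myh1 and 0.528 with Myh2 (adjusted p = 0.115 for both). Probes of 1 myosin transcript can also read a closely related one, the suffix of the Myh1 probe set used here marks that possibility, and its part in these correlations and in the balances was not tested. The arrays share their groups and pools, and dim Myh3 shares its low signals with noise. The permutations ran over all 12 arrays without keeping the groups, so their p-values also hold shifts between groups that both genes share. No p was computed for the correlations within groups.

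The genes most like each isoform over the 12 arrays, out of 12506 other probe sets with 1 symbol, were named by Pearson's r, as a description. For Myh2 they were the heart-type lactate dehydrogenase subunit Ldhb in 3 probe sets (r = 0.966, 0.956 and 0.945), myoglobin, Mb, the oxygen store of oxidative fibres (0.959), and Atp1b1, a sodium pump subunit (0.934). Mb read 5510, 3930 and 3230 in vehicle, 8240, 10000 and 7790 in exercise, 7840, 2800 and 4670 in GW and 6390, 8300 and 5300 in the combination, so that GW array 1 was high and GW array 2 the lowest of all. These were the highest array of all and the next to lowest for Myh2. For Myh1 they were Actn2, an α-actinin of the Z-disc (0.939), the chaperone Hsph1 (0.939), the mitochondrial creatine kinase Ckmt2 (0.931), Pycrl (0.913) and the mitochondrial protein gene Chchd10 (0.912). For Myh4 they were the muscle actin gene Acta1 (0.942), the fast calcium pump Atp2a1 (0.923), the muscle enolase Eno3 (0.916), the fast fibre calcium buffer Pvalb (0.908) and Denn2b (0.908). For Myh3 the leading 5 (Flt4, Fcgr2b, Baz2a, Zdhhc14 and Cnp, 0.901 to 0.913) and for Myh8 (Krt79, Dnm2, Ahdc1, Flot1 and Phldb1, 0.839 to 0.884) held no contractile gene.

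**Figure D4:**
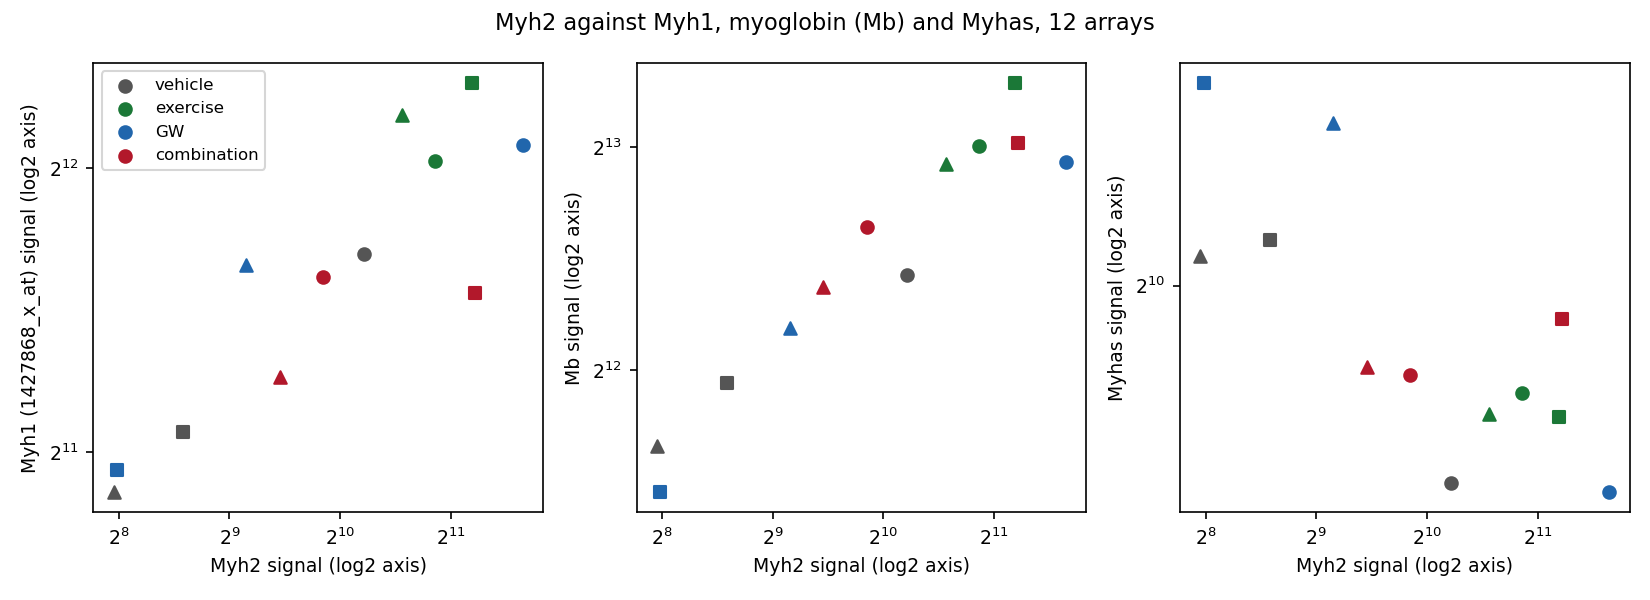
Myh2 signal against the signals of Myh1, myoglobin (Mb) and Myhas, a noncoding RNA between Myh1 and Myh4, on 12 arrays (log2 axes). Colours are the groups and symbols arrays 1, 2 and 3; Myh1 and Mb rise with Myh2, and Myhas is highest in GW arrays 2 and 3, where Myh2 reads 253 and 569.

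The proteins that work with myosin were described from lists chosen alongside the members. None of the 11 slow sarcomere genes tested passed in any comparison. The slow troponin genes Tnnt1 and Tnni1 fell below the filter and are not among the 11. In exercise against vehicle the log2 fold change was above 0 for 11 of them (median 0.62), and for 1 in the combination against exercise (median -0.44), where all probe sets had medians of 0.01 and -0.01. In exercise Mb had 1.07 ± 0.28 (adjusted p = 0.251 by limma), Tpm3 0.55 ± 0.20 (0.374) and Actn2 0.85 ± 0.32 (0.375). Myoz2, a Z-disc protein of slow and oxidative fibres, had 2.28 ± 0.91 (0.405). Myoz2 read 92.6, 39.4 and 4.28 in vehicle and 107, 138 and 120 in exercise. Vehicle array 3 lay below the background of 23.5, so the size of the Myoz2 fold change is uncertain. Myl2 (the slow regulatory light chain), named after its values were seen, read 12.3 to 69.8 and so was dim. Myl3 and Atp2a2, also named after their values were seen, had only 0.16 ± 0.80 and 0.09 ± 0.15 in exercise against vehicle. GW array 1, the array with the highest Myh2, also read 2390 for the stretch-responsive Ankrd2, against 74.3 to 306 on the 11 others. Csrp3, a muscle LIM protein gene named after its values were seen, read 1470 on it and 75.7 and 60 on the other two GW arrays. The part of that array's make-up in its Myh2 signal was not tested, and values without it stand beside the results above.

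Of 13 fast sarcomere genes, 11 were above 0 in exercise against vehicle (median 0.17), with 0 past the threshold and Myl1, the fast essential light chain, at 0.30 ± 0.07 (adjusted p = 0.218). Mybph, a myosin binding protein of fast fibres, was the exception under the drug. It read 2160, 2350 and 2610 in vehicle and 2570, 1670 and 1740 in exercise, against 3850, 3300 and 3800 in GW and 4150, 3580 and 3500 in the combination. The arrays of drug-treated mice all lay above those of the others, as in 0.398% of all probe sets tested. Mybph rose with the drug averaged over training (log2 0.78 ± 0.10, adjusted p = 0.00129 by limma, where 0.317% of all probe sets passed) and in the combination against exercise (0.93 ± 0.14, adjusted p = 0.00948); against vehicle it did not pass in GW (0.62 ± 0.14, 0.238) or the combination (0.66 ± 0.14, 0.0956). The other myosins measured, nonmuscle Myh9 and Myh14 and smooth muscle Myh11, had log2 fold changes of -0.27, -0.18 and -0.31 in exercise against vehicle, with 0 of 3 past the threshold in any comparison.

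Among 7 genes of myosin folding, the thick filament and turnover, the chaperone Hsp90aa1 had the smallest p in exercise (log2 1.15 ± 0.27, adjusted p = 0.219), followed by Smyd1, a partner of myosin in thick filament assembly (0.56 ± 0.18, 0.313), and none passed. Of 16 regulators of fibre type tested, 9 were positive in exercise and 6 in GW against vehicle, with medians of 0.05 and -0.07 and 0 past the threshold; Nfatc3, a calcineurin target, had -0.51 ± 0.19 in exercise (adjusted p = 0.373) and Mef2c, a muscle transcription factor, -0.20 ± 0.08 in GW (0.721). Genes that accompany developmental myosins in regenerating or denervated muscle were read beside Myh3. Of 8 tested, 7 were positive in exercise (median 0.20) and 0 passed: the embryonic light chain gene Myl4 had 0.80 ± 0.38 (adjusted p = 0.493) and the myogenic factor Myog 0.74 ± 0.40 (0.533). In the combination against exercise 1 of the 8 was above 0 (median -0.28) and 0 passed. Arrays were separated for 1 gene in each direction. Of all probe sets tested 8.21% were separated lower, and the share separated higher was not counted. A count of 1 of 8 is too small to set apart from such a share. Myl4 was lower on every combination array than on any exercise array (log2 -1.31 ± 0.38, adjusted p = 0.295), with signals of 95, 163 and 97.1 in exercise and 68.6, 48.2 and 29.8 in the combination. Gadd45a, a stress-response gene named after its values were seen, was higher on every combination array (135, 170 and 229) than on any exercise array (128, 117 and 102), with 0.59 ± 0.31 (adjusted p = 0.597).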

How the data were processed

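Gene expression was measured on 12 arrays of mouse quadriceps RNA, 3 per group. The deposited values are signal intensities that the authors made with MAS5, per the submitters' processing notes; no source used here gives its version. Without the lowest and highest 2% of values the array means were 200.093 to 200.098, as scaling to a common mean gives. Values were log2-transformed without a pseudocount. Of the 22626 probe sets that are not among 64 controls, the upper 60% by mean log2 signal (13575, geometric mean signal of at least 28.4) were tested. In R 4.3.3 with limma 3.58.1, the 4 groups were fitted on all arrays (8 residual degrees of freedom) with an intensity trend, two-sided, with Benjamini-Hochberg adjustment over all probe sets tested and a threshold of 0.05. The comparisons were the 5 between pairs of groups, the interaction and both averaged effects.

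The array annotation gave 20393 probe sets 1 symbol, 691 several and 1606 none, and sequences came from RefSeq. All probe sets of the 6 genes were named; where 1 value per gene was needed the brightest was used, and for each gene above background the 5 most correlated probe sets were named. Up to 4 genes of a list were named, those past the threshold first, then by p. The members and lists were chosen with earlier results of these data known. Myhas was added after its values were seen. On simulated data for exercise against vehicle with 13575 probe sets, 29.2% of 1.5-fold, 59.5% of 2-fold and 80.8% of 3-fold changes were called, with 5.08% false calls. The changes were placed on probe sets drawn at random, so these shares cannot be read for Myh2 and Myh3. An SD within groups no larger than theirs was found in 99.5% and 96.8% of probe sets tested. The shares also depend on how many changes were placed, which was not varied. The alternatives were other normalizations, a pseudocount, other filters, other variance moderation, array weights, only the groups compared, the replicate number as a block, and each array left out. The number of arrays limits the precision. Nothing says that pools came from separate experiments, so p-values measure the spread between these pools.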

Additional observations from a re-analysis of the deposited data

How the results depend on the processing

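Of 173 counts of myosin heavy chain probe sets called under alternatives, 171 stayed at 0; array weights gave 2 in exercise against vehicle and a fit of only the groups compared gave 1 in the combination against exercise. Leaving out any 1 array gave 0 in every comparison. The labels do not say what a replicate number marks, and the arrays were not treated as paired, since deviations of arrays with the same number correlated by only -0.0484 to 0.1. Of the 12 arrays, 8 correlated best, among the arrays of other groups, with one of their own number. Each other group holds 1 array of that number among its 3. This is a hint from the data, not the design, and whether the number marks a batch was not tested. With the replicate block 0 probe sets were called in every comparison.

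Of 1011 log2 fold changes of single probe sets under alternatives, 968 kept sign and side of the threshold; no value that changed sign had passed. Quantile normalization turned Myh4, in exercise (-0.05), the combination (-0.04) and training averaged (-0.05), in the interaction (0.01) and in the combination when set against exercise (0.01) or GW (-0.04), and Myh3 in the combination against vehicle (-0.07). Cyclic loess turned Myh3 there (-0.01), Myh4 in the combination against GW (-0.01) and the dim Myh1 probe set 1452465_at in the combination against exercise (0.01). The cause was not tested.

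With single arrays left out, signs changed within these ranges. For Myh2 they were -0.35 to 1.48 in GW against vehicle, -0.23 to 1.60 in the combination against GW and -0.52 to 0.39 for the drug averaged. For Myh3 in the combination against vehicle the range was -0.33 to 0.86, and for Myh4 in the combination against GW -0.05 to 0.06. In the combination against GW the bright Myh1 probe sets had -0.04 to 0.24 and -0.39 to 0.18. For 1452465_at the ranges were -0.09 to 0.78 in exercise, -1.12 to 0.09 in GW, -0.48 to 0.62 in the combination, -0.69 to 0.41 in the combination against exercise, -0.14 to 1.12 in the interaction and -0.70 to 0.02 for the drug averaged. Myh8 without vehicle array 2 had -0.48 in GW, 0.42 in the interaction and -0.27 for the drug averaged; in most alternatives it fell below the filter. Of 90 values of the isoform balance 89 moved by less than the SD within groups, the other being Myh1 minus Myh4 in GW (-0.17 with the mean of the probe sets).

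The signal over background limits Myh3, Myh8, Myh7 and 1452465_at.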

Other observations

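Myhas, a noncoding RNA that RefSeq places between Myh1 and Myh4 on the opposite strand, overlapping the end of Myh1, was not a member of the set and was singled out after its values were seen. Its probe set and the Myh1 probe set 1427868_x_at are annotated with the same sequence record. Myhas read 600, 1160 and 1110 in vehicle, 766, 717 and 723 in exercise, 586, 1770 and 1590 in GW and 804, 936 and 822 in the combination. It was lowest in GW array 1 and vehicle array 1, the arrays highest for Myh2 within their groups, and highest in GW arrays 2 and 3. Over the 12 arrays Myhas had Pearson's r of -0.77 with Myh2 and Spearman's rho of -0.755, given as a description with no p because Myhas was chosen for this pattern. Pearson's r was -0.676 without vehicle array 3 and GW array 2 and -0.836 within groups. With Myh1 r was -0.669 and rho -0.783, and r was -0.517 without the same 2 arrays and -0.821 within groups. With Myh4, the neighbour on its other side, r was -0.0616. In the fit across all probe sets Myhas did not differ past the threshold in any comparison by limma, with log2 fold changes of -0.32 ± 0.32 in exercise (adjusted p = 0.765) and 0.37 ± 0.32 in GW (adjusted p = 0.878) against vehicle.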
